A study of Mus musculus with 9 samples.

Results

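The genes described here are the ligands, receptors and modulators of Wnt signalling on 9 mouse gene arrays. Members were chosen by symbol among genes with a single-symbol probe set. The symbol had to begin with Wnt, Fzd (Frizzled), Rspo (R-spondin), Dkk (Dickkopf) or Sfrp (secreted Frizzled-related) and a number. Genes of these families with other symbols, such as Frzb, were not taken. A further 10 genes were named (Apcdd1, Lrp5, Lrp6, Axin2, Lef1, Tcf7l1, Tcf7l2, Wif1, Notum and Porcn). The rule found 52 of the 22180 genes with a named probe set, and no measured value entered it. One of the 52, Fzd10os, is an antisense RNA named after Fzd10 and not a Frizzled. The other 51 comprise 19 Wnt ligands, 10 Frizzled receptors, 2 co-receptors, 4 R-spondins, 4 Dickkopfs, 4 secreted Frizzled-related proteins, 4 further inhibitors, 3 transcription factors and Porcn.

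All cultures came from WT mice of the CD1 strain. The neuron group (3 arrays) came from cortex of embryos at E16, cultured 5 days in all, although another label gives 4 days. The precursor group (3 arrays) came from cortex of embryos at E13, cultured 1 day. In the co-culture group (3 arrays), E13 precursors were added to E16 neurons after 4 days and both were kept together for 1 day. Cell type, age of the embryos and length of culture all differ between neuron and precursor cultures and cannot be told apart. The labels call the arrays biological replicates; they do not say which embryos or litters a number stands for, so the p-values measure the spread between these 3 samples per group. In RNA from whole cultures, fewer cells of a type and less RNA per cell cannot be told apart.

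Wnts are secreted lipid-modified proteins that bind Frizzled receptors together with the co-receptors LRP5 and LRP6. In the canonical branch, receptor binding stops the breakdown of beta-catenin, which then enters the nucleus and acts with TCF/LEF factors on target genes. R-spondins strengthen the response by sparing Frizzleds from removal, and Dickkopfs, secreted Frizzled-related proteins, Wif1, Apcdd1, Notum and Axin2 restrain it. In the embryonic cortex the pathway is known for its part in patterning, in the balance between division and neuron formation of radial precursors, and later in axon and synapse growth.

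Levels are log2 RMA values (background-corrected, normalised and summarised per probe set by the authors), so that 1 unit is a 2-fold difference. The 9 array medians over all probe sets lay between 6.75 and 6.79, and arrays of a group correlated with each other at 0.988 or above. In neurons 10 of 11 tested neuron markers were higher, and the 7 tested markers of cycling cells and the 10 of radial precursors were lower. Of the 7 cycling markers, 5 were above the array median in each neuron array and 7 in each precursor array. Cycling markers that were dim in neurons could thus enter the test through the other cultures. The neuronal tubulin gene Tubb3 had a mean of 11.95 in the neuron arrays and of 11.96 in the precursor arrays. The summed linear level of 8 endothelial markers ranged over 673.8 to 735 for neurons, 957.7 to 1015 for precursors and 963.7 to 1132 for the co-culture, with 4 of the 8 (Tek, Cldn5, Tie1 and Esam) too dim to be tested.

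Of the 52 members, 22 lay above the array median in all 9 arrays. They were Wnt4, Wnt7a, Wnt7b, Wnt9b, Porcn, Fzd1, Fzd3, Fzd4, Fzd5, Fzd8, Lrp5, Lrp6, Rspo1, Rspo3, Dkk3, Sfrp1, Sfrp2, Apcdd1, Wif1, Axin2, Lef1 and Tcf7l1. A further 16 were at or below it in every array: Wnt1, Wnt2, Wnt2b, Wnt3, Wnt3a, Wnt6, Wnt8a, Wnt8b, Wnt10b, Wnt16, Fzd10, Fzd10os, Rspo4, Dkk4, Sfrp4 and Sfrp5. The remaining 14 were above it in some arrays only. Being above the median is a statement about brightness on the array, since probe sets differ in how strongly they bind and no detection calls were used.

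**Figure D1:**
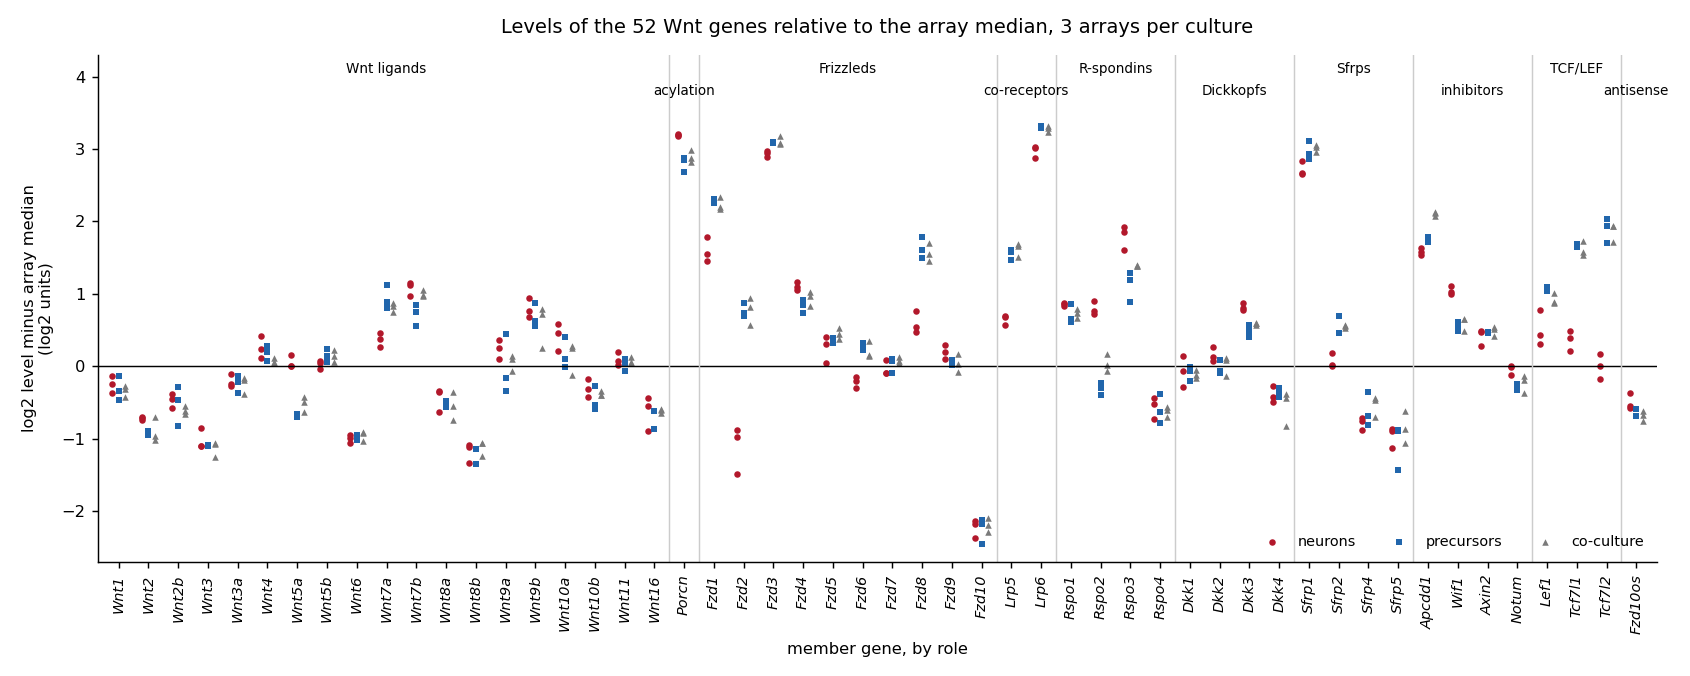
Each point is 1 array: the log2 level of a member minus that array's median over all probe sets (vertical axis, log2 units), with the 52 members along the horizontal axis by role and 3 arrays each for neurons (circles), precursors (squares) and co-culture (triangles). Most Wnt ligands lie near or below the line at 0, whereas Porcn, Fzd3, Lrp6 and Sfrp1 lie well above it in every array.

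Genes above the array median in at least 3 arrays were tested, which kept 33 members and 13012 genes in all. Rspo2 (5 arrays above) and Dkk2, Fzd2, Fzd6, Fzd7 and Wnt9a (6 arrays each) were the members just inside this limit, and Wnt5a (2 arrays), Dkk1 and Notum (1 array each) were just outside. Fzd2, Fzd6 and Rspo2 had no array above the median in the culture where they were low, so they entered only through the cultures where they were high and had to differ.

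Neurons were compared with precursors to see which parts of the Wnt machinery each culture expressed. Lower in neurons were 5 Frizzleds, both LRP co-receptors, the 3 TCF/LEF factors, Sfrp1, Sfrp2, Apcdd1 and Wnt7a. Higher in neurons were Rspo2, Rspo3, Porcn, Wif1, Dkk3, Fzd4 and Wnt7b. Of the 33 tested members 14 were lower and 7 higher in neurons (limma, adjusted p under 0.05), beside 35.2% of all tested genes lower and 28% higher. In either direction this is 63.6% of the members against 63.1% of all tested genes, so the share that changed was near the background. With cyclic loess normalisation 11 members were lower and 8 higher, beside 4055 and 4243 of 13011 tested genes. By count, 7 members in the higher and 14 in the lower direction had no overlap between their neuron and precursor arrays, beside 29.5% of all tested genes in the higher and 36.9% in the lower direction. The median log2 difference was -0.063 over the members and -0.020 over all tested genes. Differences of at least 2-fold were found for 5 of 33 members (15.2%), beside 10.3% of all tested genes. Of these 5, Fzd2 and Rspo2 entered the test only through the cultures where they were high.

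**Figure D2:**
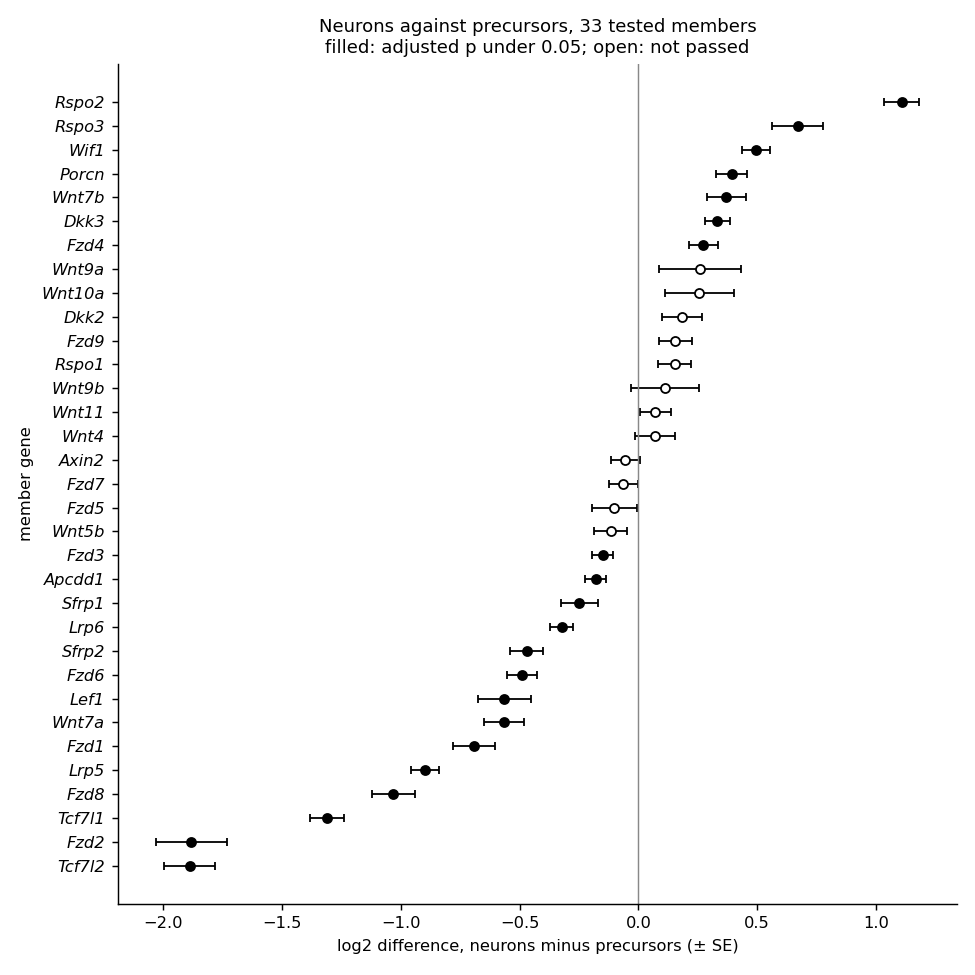
Log2 difference of neurons minus precursors (horizontal axis) with its standard error for the 33 tested members (vertical axis, sorted), with filled points for adjusted p under 0.05. Tcf7l2 and Fzd2 lie furthest to the left at -1.89 and -1.88, and Rspo2 furthest to the right at 1.11. Fzd2, Fzd6 and Rspo2 entered the test only through the cultures where they were high.

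Among the ligands, the paired genes Wnt7a and Wnt7b, which both signal in the embryonic forebrain and to its blood vessels, lay on opposite sides; the difference between the pair was not tested. Wnt7a was at 7.25, 7.02 and 7.18 in the neuron arrays, 7.89, 7.59 and 7.66 in the precursor arrays and 7.63, 7.52 and 7.61 in the co-culture arrays. Every neuron array lay below every precursor and co-culture array. The level was 1.48-fold lower in neurons than in precursors (log2 difference -0.57, SE 0.086, limma adjusted p = 2.48e-04). Wnt7b was at 7.93, 7.73 and 7.92 in neurons, 7.62, 7.33 and 7.52 in precursors, with 7.73, 7.73 and 7.83 in the co-culture. Neurons and precursors did not overlap, and the co-culture overlapped with neurons. Wnt7b was 1.29-fold higher in neurons than in precursors (log2 difference 0.37, SE 0.082, adjusted p = 0.0028). Reck, a surface protein that lets cells respond to the Wnt7 ligands, was lower in neurons by a log2 difference of -0.19 (adjusted p = 0.022), while its partner Adgra2 differed by -0.053 (adjusted p = 0.508) and did not pass; both were singled out after their values were seen.

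The other 6 tested Wnt ligands (Wnt4, Wnt5b, Wnt9a, Wnt9b, Wnt10a and Wnt11) passed in none of the 3 comparisons. Their values ranged from 6.44 to 7.73 over all arrays, and their largest difference between neurons and precursors was 0.26 on the log2 scale, for Wnt9a. Wnt9a, singled out after its values were seen, was at 6.88, 7.01 and 7.15 in neurons, 7.22, 6.44 and 6.61 in precursors, with 6.89, 6.69 and 6.88 in the co-culture. Precursor replicate 1 was the highest of all 9 arrays, and without it Wnt9a was higher in neurons by 0.49 (adjusted p = 0.00221). Wnt10a was at 7.20 ± 0.22 (SD, n = 3) in neurons, 6.94 ± 0.22 in precursors, with 6.90 ± 0.22 in the co-culture. Wnt4 (7.03, 6.96 and 6.84), Wnt5b (6.81, 6.92 and 6.91), Wnt9b (7.57, 7.46 and 7.35) and Wnt11 (6.87, 6.80 and 6.84) had means in neurons, precursors and co-culture that lay within 0.22 of each other for each gene.

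Wnt5a, a ligand best known for signalling without beta-catenin, lay below the limit for testing and was singled out after its values were seen. It was at 6.78, 6.91 and 6.80 in neurons, 6.08, 6.12 and 6.10 in precursors, with 6.25, 6.34 and 6.15 in the co-culture. All 3 neuron arrays were above all others, and all co-culture arrays were above all precursor arrays. When all 22180 genes were tested, Wnt5a was 1.66-fold higher in neurons than in precursors (log2 difference 0.73, adjusted p = 5.90e-06), and the co-culture differed from precursors by 0.15 (adjusted p = 0.318). The 10 Wnt ligands that were never above the array median had values between 5.41 and 6.68, and the means of their 3 groups differed by at most 0.19. When all 22180 genes were tested, none of the 10 passed in any of the 3 comparisons (limma), which does not show that the ligands were absent or equal. The smallest adjusted p among them was 0.1015, for Wnt2 between neurons (6.08, 6.01 and 6.08) and precursors (5.88, 5.88 and 5.83), whose arrays did not overlap. For Wnt2b the co-culture arrays lay below the neuron arrays without overlap (adjusted p = 0.3785). Wnt2 and Wnt2b were singled out after their values were seen.

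Wnt proteins must be acylated by Porcn in the endoplasmic reticulum and carried to the cell surface by Wls before they can signal. Porcn was higher in neurons, at 9.97 ± 0.038 against 9.58 ± 0.11 in precursors (1.31-fold, log2 difference 0.39, SE 0.066, adjusted p = 4.86e-04). Wls, which is no member but belongs to the list of surface and secretion genes below, was 1.87-fold higher in neurons (8.56 ± 0.086 against 7.65 ± 0.070, adjusted p = 1.39e-05). Neuron and precursor arrays did not overlap for either gene.

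Of the 9 tested Frizzleds, the receptors that bind Wnts directly, 5 were lower in neurons, 1 was higher and 3 did not pass. Among all tested genes 35.2% were lower and 28% higher. Fzd2 was at 5.29, 5.77 and 5.92 in neurons, 7.65, 7.48 and 7.51 in precursors, with 7.69, 7.58 and 7.35 in the co-culture. The neuron arrays lay below the array median and all others above it, so Fzd2 entered the test only through the cultures where it was high. The difference was 3.69-fold (log2 -1.88, SE 0.149, adjusted p = 2.46e-06). The neuron level lay on average at the 26.5th percentile of its arrays, and whether dim signal understates the difference was not tested.

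Fzd8 was at 7.26, 7.51 and 7.34 in neurons, 8.56, 8.27 and 8.37 in precursors, with 8.45, 8.31 and 8.24 in the co-culture. It was 2.05-fold lower in neurons than in precursors (log2 -1.03, SE 0.091, adjusted p = 5.33e-06). Fzd1 was at 8.33, 8.20 and 8.58 in neurons, 9.03, 9.07 and 9.09 in precursors, with 8.92, 9.10 and 8.98 in the co-culture. For both genes every neuron array was lower than every other array, and for Fzd1 the difference was 1.61-fold (log2 -0.69, SE 0.089, adjusted p = 7.66e-05).

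Fzd6 was lower in neurons by a log2 difference of -0.49 (6.56 ± 0.065 against 7.04 ± 0.054, limma adjusted p = 7.68e-05). No neuron array was above the array median, so Fzd6 entered the test only through the other cultures. Fzd3, a Frizzled needed for axon guidance, was at 9.76, 9.69 and 9.69 in neurons, 9.87, 9.86 and 9.86 in precursors, with 9.93, 9.84 and 9.86 in the co-culture. Its difference from precursors was small, at -0.15 (adjusted p = 0.012), and did not pass with cyclic loess normalisation (-0.052, adjusted p = 0.343). Fzd4, the receptor for the non-Wnt ligand norrin as well as for Wnts, was the 1 Frizzled with a higher level in neurons, at 7.88 ± 0.041 against 7.61 ± 0.092 (log2 difference 0.27, SE 0.062, adjusted p = 0.0032). Fzd5 (7.03, 7.13 and 7.21 in neurons, precursors and co-culture), Fzd7 (6.74, 6.81 and 6.85) and Fzd9 (6.97, 6.82 and 6.80) did not pass in any comparison, and Fzd10 lay between 4.32 and 4.66 in every array. Fzd10os was at 6.28, 6.15 and 6.08 in neurons, precursors and co-culture and lay below the limit; with all genes tested it was lower in the co-culture than in neurons by -0.20 (adjusted p = 0.047) and did not pass in the other 2 comparisons.

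Both LRP co-receptors, which pass the signal into the cell together with a Frizzled, were lower in neurons, beside 35.2% of all tested genes. Lrp5 was at 7.47, 7.43 and 7.37 in neurons, 8.24, 8.35 and 8.37 in precursors, with 8.44, 8.42 and 8.29 in the co-culture. Its neuron arrays lay well below all others, with a 1.86-fold difference from precursors (log2 -0.90, SE 0.058, adjusted p = 5.89e-07). Lrp6 had levels of 9.75 ± 0.079 in neurons and 10.07 ± 0.015 in precursors, with a smaller difference of -0.32 (SE 0.049, adjusted p = 2.26e-04).

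Of the 4 R-spondins 2 were higher in neurons, 1 did not pass and 1 was not tested, beside 28% of all tested genes higher. Rspo2 was at 7.51, 7.66 and 7.56 in neurons, 6.54, 6.47 and 6.38 in precursors, with 6.68, 6.94 and 6.80 in the co-culture. The 3 groups did not overlap, with the co-culture between the other 2, and neurons were 2.16-fold above precursors (log2 1.11, SE 0.074, limma adjusted p = 7.62e-07). No precursor array was above the array median, so Rspo2 entered the test only through the other cultures. Rspo3 was at 8.70, 8.60 and 8.40 in neurons, 7.66, 8.07 and 7.96 in precursors, with 8.13, 8.17 and 8.17 in the co-culture. Its groups did not overlap either, and neurons were 1.59-fold above precursors (log2 0.67, SE 0.106, adjusted p = 3.17e-04). Rspo1 was at 7.63 ± 0.043 in neurons and 7.48 ± 0.14 in precursors and did not pass (adjusted p = 0.081), although it did without precursor replicate 1 (log2 0.23, adjusted p = 0.00658). Rspo1 also passed with cyclic loess (log2 0.17, limma adjusted p = 0.0494). Rspo4 lay between 6.0 and 6.39 in all arrays and was not tested. Of the R-spondin receptors, Lgr4 was higher in neurons by a log2 difference of 0.83 (adjusted p = 1.39e-06), and Lgr6 differed by 0.039 (adjusted p = 0.57) and did not pass; both were singled out after their values were seen. Lgr5 had means of 6.96 in neurons and 6.21 in precursors, but it lay above the array median only in the 3 neuron arrays, so it entered the test only through the culture where it was high.

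Inhibitors were found in both directions. Sfrp2, which binds Wnts outside the cell, was at 6.79, 6.93 and 6.81 in neurons, 7.48, 7.23 and 7.23 in precursors, with 7.32, 7.33 and 7.31 in the co-culture. The neuron arrays were below all others, by a log2 difference of -0.47 from precursors (SE 0.070, adjusted p = 2.18e-04). A second Sfrp2 probe set was dim in every array, between 5.40 and 5.87, and with the mean of both the gene fell below the limit for testing. Sfrp1, of the same family, was at 9.44, 9.42 and 9.63 in neurons, 9.71, 9.65 and 9.88 in precursors, with 9.71, 9.79 and 9.83 in the co-culture. Its neuron level was lower by -0.25 on the log2 scale (adjusted p = 0.017), a call that was lost with cyclic loess (-0.15, adjusted p = 0.124) and without neuron replicate 1 (adjusted p = 0.0586), neuron replicate 2 (0.0547) or precursor replicate 3 (0.0674). Sfrp4 and Sfrp5 stayed at or below 6.42 in every array.

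Wif1, a secreted Wnt-binding inhibitor, was higher in neurons at 7.82 ± 0.035 against 7.33 ± 0.059 in precursors (1.41-fold, log2 0.49, SE 0.060, adjusted p = 5.29e-05). Dkk3, an atypical Dickkopf, was higher at 7.60 ± 0.028 against 7.26 ± 0.092 (log2 0.33, SE 0.053, adjusted p = 3.32e-04). Neuron and precursor arrays did not overlap for Wif1 or Dkk3. Dkk2, which binds the LRP co-receptors, was at 6.93, 6.75 and 6.78 in neurons, precursors and co-culture and did not pass in limma's test (adjusted p = 0.087 for neurons against precursors). Dkk1, an inhibitor of the LRP co-receptors, had means of 6.70, 6.68 and 6.65, and Dkk4 had means of 6.38, 6.42 and 6.22; neither was tested. Notum, an enzyme that removes the lipid from Wnts, was at 6.73 ± 0.092, 6.50 ± 0.045 and 6.53 ± 0.12 and lay below the limit; with all genes tested its neuron level was higher by 0.23 (adjusted p = 0.028). Axin2, a scaffold of beta-catenin breakdown and a widely used target gene of canonical signalling, is shown by array although it passed in no comparison, a choice made after its values were seen. It was at 7.06, 7.23 and 7.27 in neurons, 7.24 in all 3 precursor arrays and 7.27, 7.19 and 7.32 in the co-culture. These ranges overlapped, with a log2 difference of -0.055 between neurons and precursors (SE 0.060, limma adjusted p = 0.456). The 3 precursor values were identical to the last digit given, so they show no spread between arrays. A second, dimmer Axin2 probe set was at 6.99, 6.64 and 6.80 in precursors. Its means were 6.84, 6.81 and 6.83 in neurons, precursors and co-culture, and it was above the array median in 6 arrays.

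The 3 TCF/LEF factors, which carry beta-catenin to DNA, were all lower in neurons, beside 35.2% of all tested genes. Tcf7l2 was at 6.95, 6.76 and 6.62 in neurons, 8.71, 8.48 and 8.80 in precursors, with 8.68, 8.48 and 8.72 in the co-culture. The neuron arrays lay around the array median and all others well above it, a 3.70-fold difference from precursors (log2 -1.89, SE 0.108, adjusted p = 2.56e-07). Tcf7l1 was at 7.28, 7.14 and 7.0 in neurons, 8.46, 8.43 and 8.46 in precursors, with 8.48, 8.34 and 8.32 in the co-culture. It was 2.48-fold lower in neurons than in precursors (log2 -1.31, SE 0.071, adjusted p = 1.81e-07). Lef1 was at 7.22, 7.05 and 7.57 in neurons, 7.81, 7.86 and 7.86 in precursors, with 7.63, 7.78 and 7.67 in the co-culture. Its neuron arrays varied more (SD 0.26) but stayed below all others, and the difference from precursors was -0.56 (SE 0.110, adjusted p = 0.0013). The fourth factor of this family, Tcf7, had no single-symbol probe set in the table used here.

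Because these 3 factors had lower levels together, the 250 bases before the most upstream start of each gene are shown, 5′ to 3′ on the gene's strand, as RefSeq gives them for GRCm38.p6. Capitals mark the core CTTTG of the motif that TCF/LEF factors themselves bind, or its reverse complement CAAAG; the windows lie at chr6:72789046-72789295 (minus strand) for Tcf7l1, chr19:55741560-55741809 (plus strand) for Tcf7l2 and chr3:131110047-131110296 (plus strand) for Lef1.
Tcf7l1: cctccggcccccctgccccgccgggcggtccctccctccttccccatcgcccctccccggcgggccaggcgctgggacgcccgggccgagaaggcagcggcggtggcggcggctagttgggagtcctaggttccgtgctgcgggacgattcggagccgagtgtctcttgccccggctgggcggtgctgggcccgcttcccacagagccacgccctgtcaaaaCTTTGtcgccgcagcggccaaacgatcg
Tcf7l2: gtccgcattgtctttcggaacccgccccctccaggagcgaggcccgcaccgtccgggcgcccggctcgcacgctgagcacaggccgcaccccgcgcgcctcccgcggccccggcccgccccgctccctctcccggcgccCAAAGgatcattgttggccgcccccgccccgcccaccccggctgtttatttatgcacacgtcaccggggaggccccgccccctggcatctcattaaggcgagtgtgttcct
Lef1: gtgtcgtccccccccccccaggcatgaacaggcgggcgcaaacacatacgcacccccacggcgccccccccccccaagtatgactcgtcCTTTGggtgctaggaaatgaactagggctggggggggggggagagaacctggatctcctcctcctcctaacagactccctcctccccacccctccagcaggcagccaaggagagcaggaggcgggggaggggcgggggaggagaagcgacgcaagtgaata
Each window held 1 match, as CTTTG in Tcf7l1 and Lef1 and as CAAAG in Tcf7l2, and each was rich in G and C (73.6%, 72.8% and 66.4%, beside a median of 52.4% over all windows). A match of 5 letters is common: searched on both strands and with no other motif, 48.6% of the 32851 windows of this length in the table held at least 1, and 15 of the 32 members with a window did (46.9%). The other 20 members were not matched to a window in that table.

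**Figure D3:**
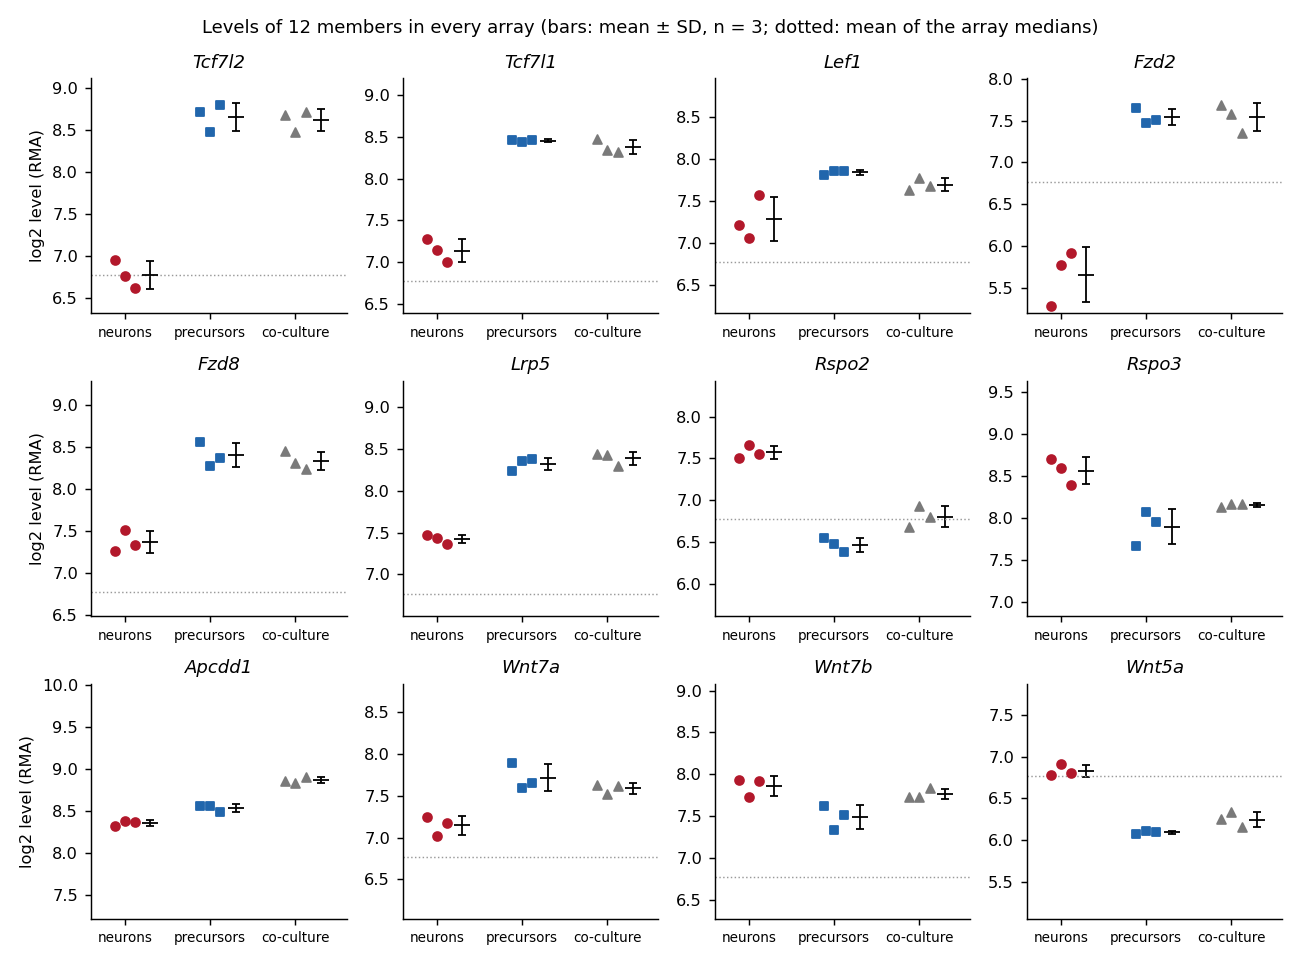
Log2 RMA levels (vertical axes, each spanning 2.8 log2 units) of 12 members in every array of the 3 cultures (horizontal axes), with the mean ± SD of 3 arrays beside the points and the mean of the array medians as a dotted line where it falls within the panel. Tcf7l2, Tcf7l1, Fzd2, Fzd8 and Lrp5 have their neuron arrays low and their precursor and co-culture arrays together, Rspo2 and Rspo3 have the co-culture between the other 2, and for Apcdd1 the co-culture lies above both.

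The rest of the pathway was described with 4 lists of 112 symbols, some of them older names of the same gene, of which 99 had a named probe set and 87 were tested. Between neurons and precursors 30 of these were higher and 31 lower in neurons (70.1%, beside 63.1% of all tested genes), with a median of -0.0081. Among 30 signal transduction genes 10 were higher and 9 lower, beside 28% and 35.2% of all tested genes. The members of the pair Nkd1 and Nkd2, inhibitors that act on Dishevelled, were on opposite sides: Nkd1 was 2.17-fold lower in neurons (log2 -1.12, adjusted p = 9.69e-06) and Nkd2 2.11-fold higher (log2 1.08, adjusted p = 6.31e-08). Ctnnb1, the gene of beta-catenin itself, was 1.67-fold lower in neurons (10.54 ± 0.036 against 11.27 ± 0.030, adjusted p = 3.90e-07); it was singled out after its values were seen.

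Of 25 tested genes for secretion, co-receptors and surface regulators, 5 were higher and 12 lower in neurons, beside 28% and 35.2% of all tested genes. Lrp4, an LRP relative that binds Wnt inhibitors, was 3.64-fold lower (log2 -1.86, adjusted p = 2.22e-09; no neuron array was above the median), and Ndp, which encodes norrin, was 3.30-fold lower (log2 -1.72, adjusted p = 3.39e-06). Tspan12, the tetraspanin partner of the norrin receptor, was lower by -0.65 (adjusted p = 1.21e-04) and was singled out after its values were seen. Of the genes for the norrin receptor, Lrp5 and Tspan12 were thus lower in neurons and Fzd4 was higher. In the planar polarity list 8 of 16 genes were higher and 5 lower, against the same 28% and 35.2%. Prickle2 was 3.01-fold and Prickle1 2.01-fold higher in neurons (adjusted p = 2.07e-08 and 4.39e-07), and Celsr1, an atypical cadherin of the same system, was 2.70-fold lower (adjusted p = 1.66e-07).

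Common Wnt target genes were found in both directions. Of 16 tested, 7 were higher and 5 lower in neurons, with a median of 0.0044, beside 28% and 35.2% of all tested genes and their median of -0.020. Ccn1, a secreted matrix protein, was 1.89-fold higher (log2 0.92, adjusted p = 5.36e-06). Ccnd1, which encodes cyclin D1, was 2.12-fold lower (log2 -1.09, adjusted p = 1.02e-04), chosen after its values were seen. The cycling markers differed in the same direction as Ccnd1, with a summed linear level of 974.4 to 1255 in neurons and 7176 to 7601 in precursors, and so did the radial precursor markers, at 9742 to 11430 and 19720 to 20870. The 4 tested endothelial markers were all lower in neurons. Only 1 of the 8 endothelial markers was above the array median in each neuron array, beside 4 in each precursor array. The limit for testing thus favoured markers that were high in precursors. Lef1, Lrp5, Tspan12 and Ndp were also lower in neurons and Fzd4 was higher, beside 35.2% and 28% of all tested genes. None of these genes is on the list of endothelial markers. Summed markers of intermediate progenitors were lower in neurons too (949.8 to 1067 in neurons, 1799 to 1885 in precursors). So was the sum for astrocytes (867.4 to 1020 and 1919 to 2143), although of the 2 tested astrocyte markers 1 was higher and 1 lower in neurons. Summed markers of pericytes and mural cells went the other way (2424 to 2798 and 1661 to 1808), with 2 of 5 tested ones higher and 1 lower in neurons. The part of the cell mixture in any of these differences was not tested.

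The co-culture was compared with precursors alone to find Wnt genes whose level differed when neurons were present, with RNA of the neurons in the sample. Only Apcdd1 and Rspo2 passed, both higher: 2 of 33 members (6.06%), beside 8.22% of all tested genes. No member passed in the lower direction (limma; 0 also at an unadjusted p under 0.05), beside 0.2% of all tested genes. No member differed by 2-fold or more, beside 0.407% of all tested genes. The remaining 31 members had log2 differences between -0.15 and 0.27, and 24 of the 33 were within 0.1 of the precursor level. Both this comparison and that of neurons with precursors use the same 3 precursor arrays.

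**Figure D4:**
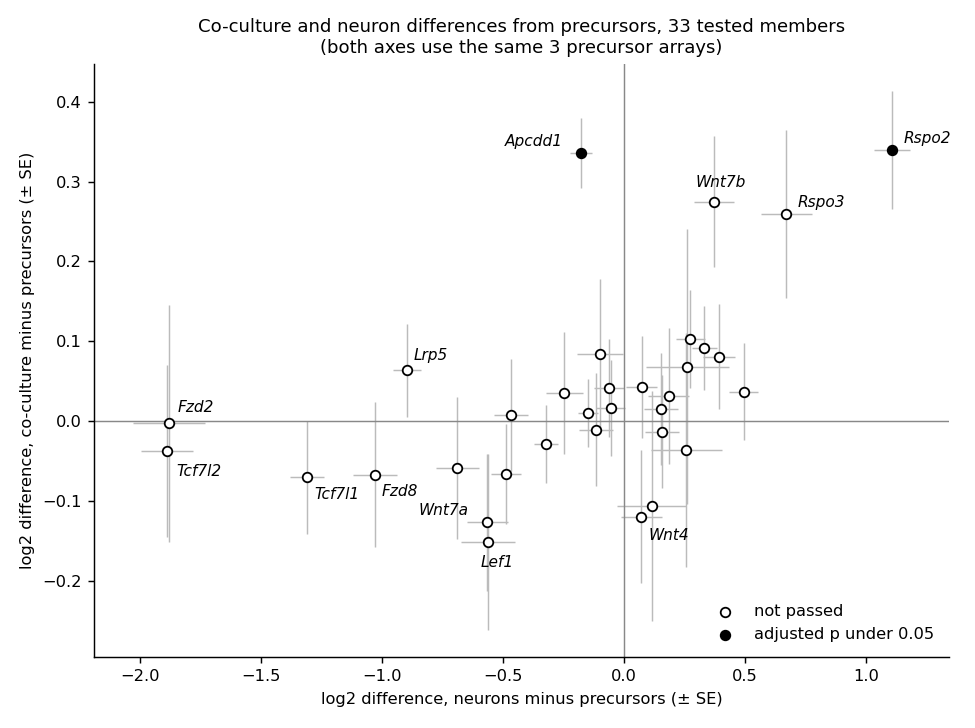
Log2 difference of the co-culture from precursors (vertical axis) against that of neurons from precursors (horizontal axis) for the 33 tested members, with standard errors and with filled points for adjusted p under 0.05 on the vertical axis. Rspo2, Rspo3 and Wnt7b lie high at the right, Tcf7l2 and Fzd2 lie near 0 on the vertical axis at the far left, and Apcdd1 is high although its neuron level is below its precursor level.

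Apcdd1 encodes a membrane glycoprotein that binds Wnts and inhibits signalling. It was at 8.32, 8.39 and 8.37 in neurons, 8.56, 8.57 and 8.49 in precursors, with 8.86, 8.84 and 8.91 in the co-culture. The 3 groups did not overlap, and the co-culture was the highest. It was 1.26-fold above precursors (log2 0.34, SE 0.044, adjusted p = 0.0011) and 1.43-fold above neurons (log2 0.51, SE 0.044, adjusted p = 6.31e-06). Neurons were below precursors by -0.18 (adjusted p = 0.0053), a call lost with cyclic loess (-0.11, adjusted p = 0.0653). A level above both separate cultures was tested with the larger of the 2 one-sided p-values. Apcdd1 had the smallest p of 13012 genes there, but it did not pass (adjusted p = 0.172), and no gene did (limma, 0%; 141 genes, or 1.08%, at an unadjusted p under 0.05). Over the alternatives its adjusted p ranged from 0.039, with only the brighter genes tested, to 1. No other member had an unadjusted p under 0.05 above both, and none had one below both (0 of 33, beside 0.976% of all tested genes). The co-culture mean lay above both other means for 8 members (24.2%, beside 24.7%) and below both for 4 (12.1%, beside 11.8%).

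In the markers of other cells, co-culture replicate 2 stood apart. The summed linear level of 10 markers of meninges and fibroblasts was 1979 there, against 1552 and 1410 in the other co-culture arrays and 1402 to 1491 in precursors, and 0 of the 6 tested markers passed between co-culture and precursors in limma's test. Without that array Apcdd1 was still higher than precursors, by 0.35 (adjusted p = 0.0053).

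Rspo2 was 1.27-fold higher in the co-culture than in precursors (log2 0.34, SE 0.074, adjusted p = 0.020). Co-culture replicate 2 had its highest co-culture level, and without that array the difference was 0.27 (adjusted p = 0.0785). It also did not pass without co-culture replicate 3 (0.0632), precursor replicate 2 (0.061) or precursor replicate 3 (0.0759). Wnt7b was higher in every co-culture array than in any precursor array, by 0.27 (SE 0.082), but did not pass (adjusted p = 0.081). With the replicate number as a block it did (limma adjusted p = 0.0302), as it did with array weights (0.0262). It also passed without neuron replicate 2 (0.0493) or precursor replicate 1 (0.0459). Rspo3 differed by 0.26 (adjusted p = 0.223) without overlap of the groups. Groups that do not overlap were found for 4 of 33 members in the higher direction (12.1%), beside 19.4% of all tested genes, and for 1 in the lower direction (Lef1; 3.03% beside 5.4%).

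In the other parts of the pathway 6 of 87 tested genes were higher in the co-culture than in precursors and 0 were lower (limma; 6.9% beside 8.42% of all tested genes). They were Wls (log2 0.47, adjusted p = 0.010), Lgr5 (0.29, 0.018), Nkd2 (0.31, 0.0039), Prickle1 (0.46, 0.0013), Prickle2 (0.48, 9.39e-04) and Zcchc12 (0.28, 0.0085). Lgr5 was below the array median in all arrays of both groups. The neuron markers moved with them, with 8 of 11 tested ones higher in the co-culture and a summed linear level of 17570 to 17970 in precursors and 22240 to 22300 in the co-culture; their part was not tested.

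Against neurons, 14 members were higher and 6 lower in the co-culture, beside 35.7% and 24.9% of all tested genes. In either direction this is 60.6% of members and 60.6% of all tested genes. The arrays of the 2 groups did not overlap for 14 members in the higher and 7 in the lower direction, beside 38.1% and 27.3% of all tested genes, and 3 members differed by at least 2-fold (9.09%, beside 6.55%). These 20 were the members that differed between neurons and precursors other than Wnt7b, which was at 7.76 ± 0.058 in the co-culture and 7.86 ± 0.12 in neurons (adjusted p = 0.337). Tcf7l2 was 3.61-fold, Fzd2 3.68-fold, Tcf7l1 2.36-fold, Fzd8 1.95-fold and Lrp5 1.95-fold higher in the co-culture than in neurons (adjusted p = 5.20e-07, 3.71e-06, 4.82e-07, 1.18e-05 and 6.46e-07). Rspo2 was 1.70-fold lower (limma adjusted p = 1.39e-05). Fzd2 and Fzd6 are among the counts above and entered the test only through the cultures where they were high. The call of Fzd4, lower by -0.17 (adjusted p = 0.036), was lost under 8 of the 16 alternatives, among them centred arrays (0.0668) and all genes tested (0.0667). With cyclic loess the calls of Fzd3 (0.058, limma adjusted p = 0.291) and Sfrp1 (0.18, 0.0718) were lost. This left 12 members higher in the co-culture, beside 4071 of 13011 tested genes.

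For the 5 members with at least a 2-fold difference between the separate cultures, the place of the co-culture between them was computed on the linear scale, with 0% at the precursor mean and 100% at the neuron mean. Rspo2, higher in neurons, was at 23.3% ± 9.90 (SD over 3 co-culture arrays), beside a median of 22.4% over the 715 such genes higher in neurons. The 4 members higher in precursors were at 3.18% ± 11.7 (Tcf7l2), -0.363% ± 15.9 (Fzd2), 7.82% ± 9.53 (Tcf7l1) and 8.57% ± 14.1 (Fzd8). The 25th and 75th percentiles of the 624 such genes were 5.77% and 13.96%, and their median was 9.90%. The spread of each of these 4 members was larger than its distance from that median, and these places are a description with no test.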

How the data were processed

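RNA of 9 cultures was measured on gene arrays, 3 per group. The authors deposited normalised log2 values for each probe set. RMA and oligo are named in the submitters' processing notes; versions and a genome build are not given in the sources used here. Scanner files were not analysed here. Of 41345 probe sets 23521 had 1 gene symbol, 1814 several and 16010 none; the brightest probe set stood for each of 22180 genes. All 52 members matched the GRCm38.p6 gene table by gene number. The 3 groups entered a single fit (lmFit and eBayes of limma 3.58.1, under R 4.3.3) over the 13012 genes above the array median in at least 3 arrays, two-sided, with Benjamini-Hochberg adjustment and a threshold of 0.05; folds come from its log2 differences. The scripts were tested on simulated data. Arrays have no read depth, so their number limits the precision.

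Members and lists were chosen with earlier results of these data known. Values of every array are given for members that passed with a log2 difference of at least 0.5 in a comparison, for those whose co-culture mean lay outside both others and that passed against 1 of them, and for Wnt7a and Wnt7b; genes named otherwise are marked. From the lists, the 4 largest rises and 4 largest falls in neurons and all genes that passed in the co-culture against precursors are named. Deviations from the group means were correlated across genes between arrays that share a number. The values were 0.345, 0.30 and 0.161 for precursors with the co-culture. They were -0.0051, 0.268 and 0.17 for neurons with the co-culture, and 0.0043, 0.134 and -0.148 for neurons with precursors. The range for neurons with the co-culture overlaps both others. All values for precursors with the co-culture lie above all values for neurons with precursors. The labels give no pairing, and whether the numbers pair any groups was not tested. Alternatives were the filter, the normalisation, array weights, the replicate block, the mean of all probe sets and leaving out each array. Correlations between members over arrays are not given, since the arrays form 3 separate groups.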

Additional observations from a re-analysis of the deposited data

How the results depend on the processing

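Differences were followed over the alternatives only for members with a low adjusted p in that comparison in the main fit, including some that did not pass. None of these changed sign where the gene was still tested. Weaker differences, which could change sign more easily, were not followed. With only genes above the 75th percentile tested, 11 members remained; neurons against precursors gave 2 higher and 9 lower, 1 was higher in the co-culture than in precursors, 9 were higher and 2 lower in the co-culture than in neurons, and 1 member (Apcdd1) lay above both cultures. The smaller counts come from fewer genes tested. With cyclic loess 11 members were lower in neurons than in precursors in place of 14 (Apcdd1, Fzd3 and Sfrp1 were lost). In place of 7 members, 8 were higher (Rspo1 was added). With the replicate block 10 members were lower in the co-culture than in neurons in place of 6 (Fzd9, Wnt4, Wnt9b and Wnt10a were added). In place of 7 members, 9 were higher in neurons than in precursors (Fzd9 and Wnt10a were added). Whether the numbers pair those groups was not tested. Apart from these and Wnt7b, the block changed no call of a member. Leaving out 1 array gave, for neurons against precursors, 7 to 10 higher and 13 to 14 lower, 1 to 3 higher and 0 to 0 lower in the co-culture than in precursors, 14 to 15 higher and 5 to 8 lower in the co-culture than in neurons, and 0 to 0 outside both. The counts of 10 and 8 came without neuron replicate 2, which had the highest summed level of cycling markers among neuron arrays (1255 against 974.4 and 981.8); the cause was not tested. At the 40th percentile in place of the median, 35 members lay above it in all 9 arrays and 7 in none, and at the 60th percentile 12 and 27. Dim signal limits the 19 untested members.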
